A study of Mus musculus with 10 samples.

Results

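The enzymes of glycolysis and of the pentose phosphate pathway were followed in whole-blood RNA of 10 mice. The members were 35 enzymes named by symbol, and 33 of them had a row in the table of 10431 genes, 32 under their symbol and *Tigar* under 9630033F20Rik through its Entrez ID. *Pklr*, the red cell pyruvate kinase, and *Pfkfb1* had no row and were not analysed here. The AIWG-P cohort held 5 female C57BL/6J mice that later gained the most weight, and AIWG-R held the 5 that gained the least. All mice were bought at 9 weeks of age and were then fed olanzapine, an antipsychotic drug, for 14 days in a high-fat diet (45% of kcal). Blood was drawn at baseline according to the study's methods, while the sample labels name the olanzapine diet as the treatment. The cohorts were thus set by an outcome and not by an intervention, and both carry the same strain, sex and diet.

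Glycolysis splits glucose into pyruvate and yields ATP, and the pentose phosphate pathway branches off at glucose 6-phosphate to make NADPH and ribose 5-phosphate. Mature red cells have no mitochondria and depend on glycolysis for ATP and on the pentose phosphate pathway for the NADPH that keeps glutathione reduced. Red cells also send part of the flux through bisphosphoglycerate mutase, the product of *Bpgm*, whose product 2,3-bisphosphoglycerate lowers the oxygen affinity of hemoglobin. White cells use the same pathways with isozymes that are widely expressed, such as the mutase *Pgam1* and the pyruvate kinase *Pkm*.

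Blood is a mixture, and the values reflect it. The share of globin genes in the summed values ran between 78.2 and 87.5% for AIWG-P and between 75 and 83.2% for AIWG-R. The multiples of the unit step in each mouse summed to between 23810098 and 32293924. Whether these multiples are whole reads could not be established. Of 18 red cell markers, 14 (77.8%) were higher in AIWG-P by the thresholds given below, against 4.06% of all genes. Without R9 there were 10 (55.6%, against 2.54%), and without P8 and R9 there were 9 (50%, against 1.71%). The mean log2 value of the 18 markers ran between 8.70 and 9.39 in AIWG-P against 7.67 and 8.98 in AIWG-R. Mouse P8 held the highest value of 27.1% of all genes, and R9 of 13.5%. R9 was also the mouse with the lowest red cell markers. More red cells and more RNA per red cell cannot be told apart in such samples.

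The promoters of the mutase pair and of the other genes that differed between the cohorts are shown because these genes share a pathway but not a level. Each line gives the 250 bases before the RefSeq start site in GRCm38.p6, 5′ to 3′ on the strand of the gene. Capitals mark the letters searched on both strands, which were GATA preceded by A or T and followed by A or G for the GATA factors, CCNCNCCC for the CACCC box, and CGTG preceded by A or G for the core of the hypoxia response element. No capitals of different motifs overlap in these windows. *Bpgm* lies at chr6:34476106-34476355 on the plus strand, *Pgam1* at chr19:41911621-41911870 on the plus strand, *Ldhb* at chr6:142507958-142508207 on the minus strand and *Prps1* at chrX:140456353-140456602 on the plus strand.
Bpgm: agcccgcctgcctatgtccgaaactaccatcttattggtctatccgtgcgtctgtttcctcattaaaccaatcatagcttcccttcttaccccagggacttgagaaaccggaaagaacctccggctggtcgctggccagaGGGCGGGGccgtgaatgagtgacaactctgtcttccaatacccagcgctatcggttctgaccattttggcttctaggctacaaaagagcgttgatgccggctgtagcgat
Pgam1: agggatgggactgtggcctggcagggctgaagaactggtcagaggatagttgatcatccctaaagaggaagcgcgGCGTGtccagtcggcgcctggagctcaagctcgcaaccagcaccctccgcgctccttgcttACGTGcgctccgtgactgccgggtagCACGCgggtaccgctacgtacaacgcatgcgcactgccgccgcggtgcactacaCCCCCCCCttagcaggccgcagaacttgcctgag
Ldhb: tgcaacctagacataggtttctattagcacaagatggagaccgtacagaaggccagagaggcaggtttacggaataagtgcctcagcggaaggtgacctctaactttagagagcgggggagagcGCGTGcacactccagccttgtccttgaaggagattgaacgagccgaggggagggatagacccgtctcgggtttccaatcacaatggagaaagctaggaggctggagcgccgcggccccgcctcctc
Prps1: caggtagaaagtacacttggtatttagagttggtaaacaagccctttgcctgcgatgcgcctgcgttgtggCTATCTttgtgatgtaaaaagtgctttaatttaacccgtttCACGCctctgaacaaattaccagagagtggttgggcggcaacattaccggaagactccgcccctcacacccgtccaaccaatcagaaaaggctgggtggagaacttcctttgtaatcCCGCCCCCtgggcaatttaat

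The *Bpgm* window held 1 CCNCNCCC match, 110 bases before the start, and no GATA or hypoxia core match. The *Pgam1* window held 3 hypoxia core matches, at 175, 114 and 88 bases before the start, and 1 CCNCNCCC match. The *Ldhb* window held 1 hypoxia core match, and the *Prps1* window held 1 match of each kind. All 33 members had a RefSeq promoter. A gene can have more than 1 such window, and the members had 48, while all 27025 genes had 32851. Genes with more windows may have more chances of a match, which the shares by gene do not correct for. A GATA match was present in 10 of 33 (30.3%), against 20.2% of the 8312 genes of the table with a promoter and 29.7% of all 27025 genes with one. The CCNCNCCC letters were present in 27 (81.8%), against 67.2 and 48.5%, and the hypoxia core in 28 (84.8%), against 62.2 and 41.5%. These are counts of letters and not of bound sites. The pattern CCNCNCCC also admits stretches without the letters CACCC, and none of those marked in these windows holds them. Stretches with CACCC that lack the full pattern were left unmarked.

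*Bpgm* stood above every other member. Per kb of transcript its normalized value averaged 48080 over the 10 mice (range 26961 to 67931), 16.7 times that of the next member, *Taldo1*, the transaldolase, at 2881 per kb. *Bpgm* alone made up 77.3 to 84.0% of the summed per kb values of the members in AIWG-P mice and 72.3 to 81.9% in AIWG-R mice. *Gapdh* followed at 2307 per kb, then *Pkm* at 1040, *Aldoa* at 1005 and *Eno1* at 882. The lowest were the muscle phosphofructokinase *Pfkm*, at 9.85 per kb, the brain aldolase *Aldoc*, at 9.88, and *Tigar*, at 12.7. The general mutase *Pgam1* reached 182 per kb, with a range of 155 to 226 that overlapped that of *Hk1*, at 179 (138 to 201). Many members have processed pseudogenes in the mouse genome, *Gapdh* above all, and the sharing of reads between such copies makes their values uncertain.

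**Figure D1:**
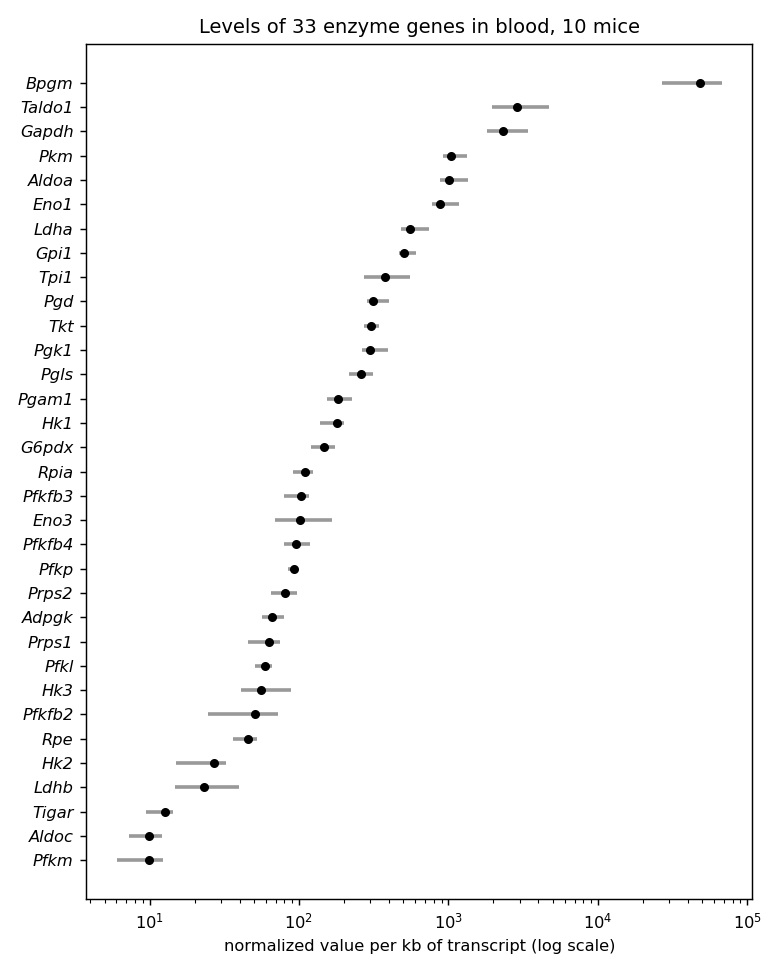
Normalized value per kb of transcript (x, log scale) of the 33 measured enzyme genes (y), with the mean of the 10 mice as a point and the range from the lowest to the highest mouse as a bar. *Bpgm*, at 48080 per kb, lies 16.7 times above *Taldo1*, the next gene.

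Between the cohorts, 3 of the 33 members were higher in AIWG-P, and none was lower. A gene counted as changed when its unadjusted limma p was under 0.05 and its log2 fold change lay beyond 0.32 in either direction. The paper describes its threshold for lower genes in more than one way. At a stricter fold under 0.75, 196 genes of the table were lower and no member was. The 3 higher members were *Bpgm*, the lactate dehydrogenase B subunit gene *Ldhb* and the phosphoribosyl pyrophosphate synthetase gene *Prps1*. By the same rule 4.06% of all 10429 genes tested were higher in AIWG-P (423 genes) and 3.23% were lower (337 genes), so that 3 of 33 (9.09%) rests on few genes. Leaving out 1 mouse gave between 0 (without R1) and 4 higher members, with 1 without P1, P8 or R2. With globins left out of the scaling, all genes shifted by -0.15 on the log2 scale in the median, the counts became 162 higher and 1212 lower, and the members 1 higher (*Bpgm*) and 1 lower (*Pfkfb2*). After Benjamini-Hochberg adjustment over all genes in limma, no member and no gene of the table reached an adjusted p under 0.05, while 6 members and 1340 genes had an unadjusted p under 0.05. *Ldha*, *G6pdx* and *Tkt* were the further members with such a p, each with a log2 fold change under 0.32.

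Differences were small and mostly of 1 sign. The log2 fold change was above 0 in 25 of 33 members, against 48.4% of all genes, with a median of 0.12 against -0.01 for all genes. With globins left out of the scaling it was above 0 in 16 of 33 (48.5%), against 22.1% of all genes. The median was then -0.03 against -0.15. Members of a pathway share mice and cells, so that these counts are a description. *Prps1* was the member with every AIWG-P mouse above every AIWG-R mouse, a pattern seen in 1.11% of all genes.

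**Figure D2:**
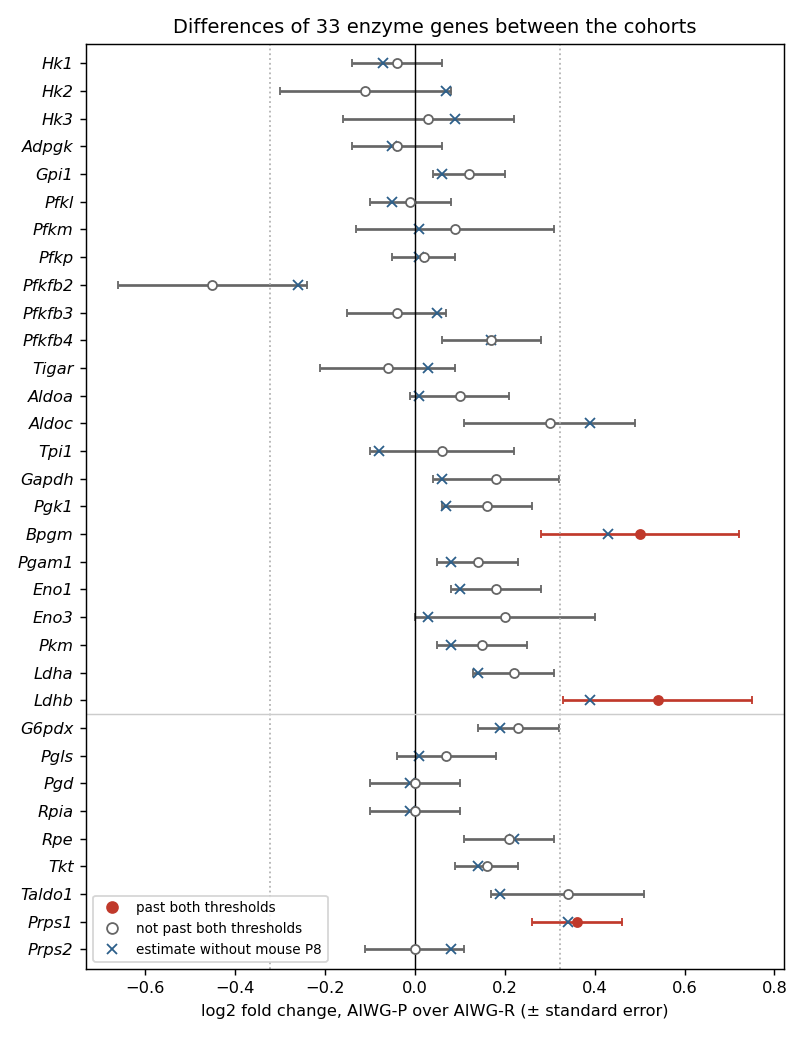
Log2 fold change of AIWG-P over AIWG-R (x) for each of the 33 genes in pathway order (y), with its standard error as a bar and, as a cross, the estimate without mouse P8. Filled points passed both thresholds, dotted lines mark a log2 fold change of 0.32 in either direction, and the line across separates glycolysis from the pentose phosphate genes. *Bpgm* (0.50), *Ldhb* (0.54) and *Prps1* (0.36) are the filled points, and *Pfkfb2* (-0.45) is the lowest.

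*Bpgm* was measured at 150808, 123016, 103310, 97540 and 148560 in P1, P3, P5, P7 and P8, against 90404, 92180, 80402, 121301 and 59853 in R1, R2, R4, R8 and R9. The cohorts overlapped through R8, which lay above P5 and P7, and R9 was the lowest mouse of all. The mean was 124647 ± 24743 across AIWG-P against 88828 ± 22242 across AIWG-R (SD, n = 5 each), a fold change of 1.42 (log2 0.50, SE 0.22, unadjusted p = 0.0397 and adjusted p = 0.379 in limma). The call was lost in 7 of the 10 fits that left out 1 mouse, namely P1, P3, P8, R1, R2, R4 or R9 (log2 between 0.37 and 0.53), and without P8 and R9 together (log2 0.30). It was also lost under quantile normalization (log2 0.00) and with the number in the labels as a covariate (log2 0.50, unadjusted p = 0.0546). The outcome under quantile normalization was fixed in advance. *Bpgm* ranked 6 of all genes in every mouse, so that this scaling gives it the same value in each. As a share of all summed values, globins included, *Bpgm* made up 0.325 to 0.462% in AIWG-P and 0.354 to 0.398% in AIWG-R.

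*Pgam1*, the general phosphoglycerate mutase that acts at the same stage, had 309, 310, 333, 342 and 401 in P1, P3, P5, P7 and P8, against 327, 343, 295, 291 and 276 in R1, R2, R4, R8 and R9. The values overlapped broadly, with P8 the highest mouse. The log2 fold change was 0.14 (SE 0.09, adjusted p = 0.513 in limma). The difference between these forms was tested within each mouse, where the scaling of a mouse cancels. There were 487, 397, 310, 285 and 371 units of *Bpgm* per unit of *Pgam1* in P1, P3, P5, P7 and P8, against 276, 269, 273, 417 and 217 in R1, R2, R4, R8 and R9, values that are not corrected for transcript length. On the log2 scale the ratio was 8.50 ± 0.30 across AIWG-P against 8.14 ± 0.34 across AIWG-R (SD, n = 5 each), a difference of 0.36 (SE 0.21) that did not pass an exact two-sided permutation test (p = 0.119, the smallest possible p being 0.00794). Leaving out 1 mouse gave differences between 0.25 (without P1, exact permutation p = 0.238) and 0.50 (without R8, the AIWG-R mouse with the high ratio, exact permutation p = 0.0159, the smallest that 5 against 4 mice allow). Under quantile normalization the difference was -0.17 (exact permutation p = 0.135). *Bpgm* ranked 6 of all genes in every mouse, so that this scaling gives it the same value in each. That difference therefore carries *Pgam1* alone and does not bear on *Bpgm*. The matching ratio of *Pklr* to *Pkm* could not be formed, so that no red cell form other than *Bpgm* was compared.

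*Pkm*, which encodes the general pyruvate kinase, had 2384, 2147, 2261, 2498 and 2976 in P1, P3, P5, P7 and P8, against 2452, 2062, 2072, 2271 and 2129 in R1, R2, R4, R8 and R9. R1 lay above 3 of the AIWG-P mice, and the log2 fold change was 0.15 (SE 0.10, adjusted p = 0.501). The other genes of lower glycolysis had differences of a like size, and none passed. *Gapdh*, which oxidizes glyceraldehyde 3-phosphate, averaged 3145 ± 722 across AIWG-P against 2729 ± 273 across AIWG-R (log2 0.18, adjusted p = 0.562). The phosphoglycerate kinase *Pgk1* averaged 574 ± 89.9 across AIWG-P against 511 ± 22.6 across AIWG-R (log2 0.16, adjusted p = 0.502). The enolase *Eno1* averaged 1846 ± 270 across AIWG-P against 1619 ± 98.8 across AIWG-R (log2 0.18, adjusted p = 0.442), and the muscle enolase *Eno3* had a log2 fold change of 0.20 (adjusted p = 0.665). All 7 measured genes of lower glycolysis had a log2 fold change of 0.14 or more (of 0.00 or more with globins left out of the scaling, and of -0.07 or more without P8 and R9), and *Bpgm* was the one that passed both thresholds.

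*Ldhb* encodes the heart-type subunit of lactate dehydrogenase, which interconverts pyruvate and lactate. It had 38.7, 25.1, 27.4, 36.6 and 51.8 in P1, P3, P5, P7 and P8, against 19.3, 21.5, 28.5, 21.7 and 28.8 in R1, R2, R4, R8 and R9. P3 and P5 lay below R4 and R9, and P8 was far above the rest in these normalized values. The mean was 35.9 ± 10.6 across AIWG-P against 24 ± 4.4 across AIWG-R, a fold change of 1.45 (log2 0.54, SE 0.21, unadjusted p = 0.0253 and adjusted p = 0.349 in limma). These are low values, of 23 to 37 unit steps per mouse in AIWG-P and 18 to 46 in AIWG-R. Counted in steps, the highest mouse was thus an AIWG-R mouse and not P8, which had the largest step (1.57). The call was lost without P1, P8, R1 or R2 (log2 between 0.39 and 0.50) and without P8 and R9 together (0.46), and among the 7 mice whose label carries the number 4 the difference was 0.25.

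*Ldha*, the muscle-type subunit gene, was far more abundant, at 556 per kb against 23.0 per kb for *Ldhb* over the 10 mice. It had 832, 878, 892, 987 and 1180 in P1, P3, P5, P7 and P8, against 809, 828, 763, 825 and 833 in R1, R2, R4, R8 and R9. The cohorts overlapped only where R9 reached 833 and P1 reached 832. The log2 fold change was 0.22 (SE 0.09, unadjusted p = 0.0346), a fold change of 1.17 that stayed under the threshold.

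**Figure D3:**
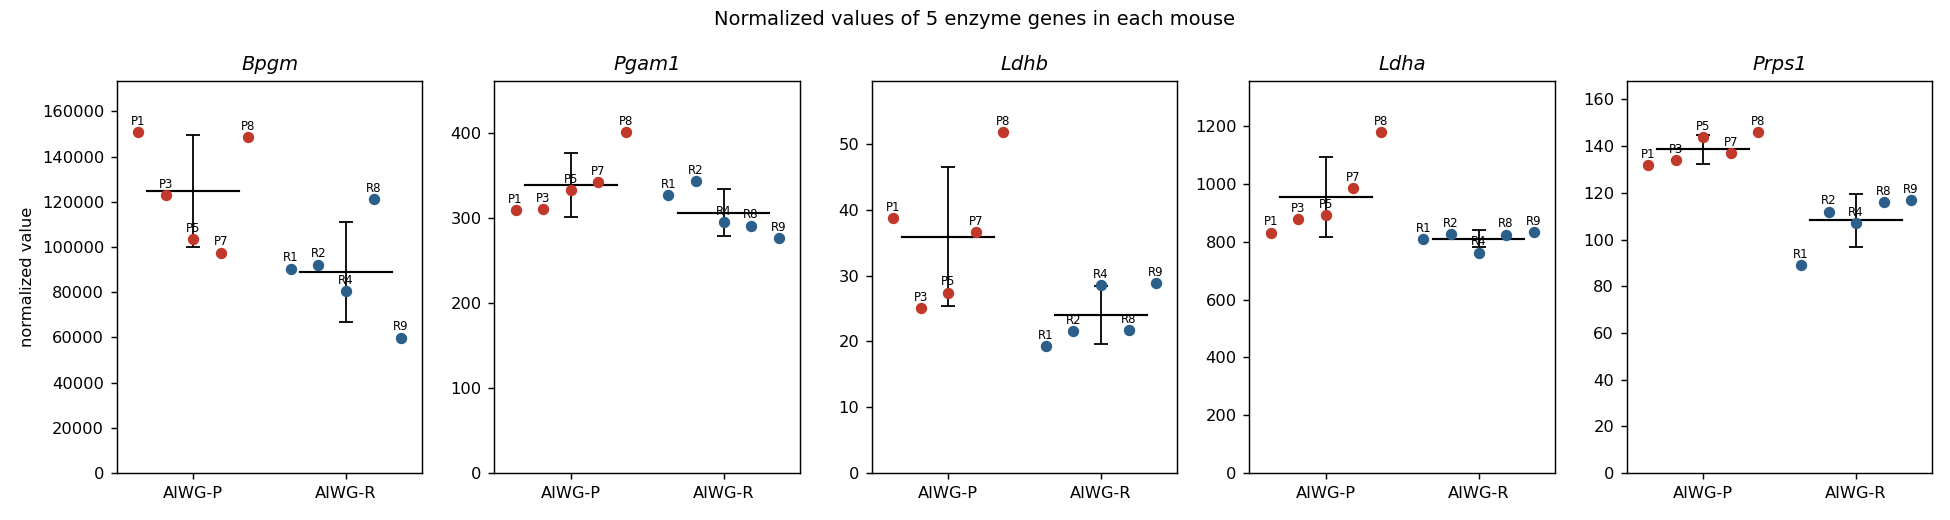
Normalized values (y, each axis from 0) of *Bpgm* and *Pgam1*, *Ldhb* and *Ldha*, and *Prps1* in each mouse, with AIWG-P mice on the left and AIWG-R mice on the right of each panel; lines and bars give mean and SD (n = 5). The cohorts are separate for *Prps1*, with 132 as the lowest AIWG-P and 117 as the highest AIWG-R value, and overlap for the others.

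*Prps1* encodes a synthetase that turns ribose 5-phosphate into phosphoribosyl pyrophosphate, the precursor of nucleotides. It had 132, 134, 144, 137 and 146 in P1, P3, P5, P7 and P8, against 89, 112, 107, 116 and 117 in R1, R2, R4, R8 and R9. The cohorts did not overlap, and R1 was the lowest mouse. The mean was 138 ± 6.2 across AIWG-P against 108 ± 11.3 across AIWG-R, a fold change of 1.28 (log2 0.36, SE 0.10, unadjusted p = 0.00229 and adjusted p = 0.325 in limma). Without R1 the log2 fold change was 0.29, under the fold threshold, and in the other 9 fits without 1 mouse the call was kept. With globins left out of the scaling it was 0.22, also under that threshold. *Prps2*, its paralog, averaged 299 ± 43.5 across AIWG-P against 297 ± 23.4 across AIWG-R (log2 0.00, adjusted p = 0.996).

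The first steps of glycolysis showed no gene past the thresholds. *Hk1*, the hexokinase of red cells and most tissues, averaged 662 ± 85.5 across AIWG-P against 677 ± 58.4 across AIWG-R (log2 -0.04, adjusted p = 0.883). *Hk2* had a log2 fold change of -0.11 and was lowest in P8 (62.8), and *Hk3*, a hexokinase of myeloid cells, had 0.03. The ADP-dependent glucokinase *Adpgk* had -0.04. Glucose 6-phosphate isomerase, the product of *Gpi1*, averaged 1513 ± 149 across AIWG-P against 1392 ± 62.4 across AIWG-R (log2 0.12, adjusted p = 0.536).

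Phosphofructokinase commits sugar to glycolysis, and none of its 3 subunit genes passed the thresholds, with log2 fold changes of -0.01 for *Pfkl*, 0.09 for *Pfkm* and 0.02 for *Pfkp*. The Pfkfb genes encode enzymes that make and remove fructose 2,6-bisphosphate, the activator of phosphofructokinase. *Pfkfb2* was the member with the lowest log2 fold change, with a median of 84.6 (51.8 to 132) in AIWG-P and of 123 (93.3 to 152) in AIWG-R (log2 -0.45, SE 0.21, unadjusted p = 0.0546 and adjusted p = 0.396 in limma), P8 being the lowest mouse and R9 the highest. It passed both thresholds without P3, P5 or R8 (log2 between -0.52 and -0.59) and was at -0.26 without P8. *Pfkfb3* had -0.04, *Pfkfb4* had 0.17, and *Tigar*, a bisphosphatase that favours the pentose phosphate pathway, had -0.06. Of the next enzymes, the aldolase gene *Aldoa* had 0.10, *Aldoc* 0.30 and the triose phosphate isomerase gene *Tpi1* 0.06, and none passed (adjusted p between 0.496 and 0.882).

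In the oxidative branch of the pentose phosphate pathway, *G6pdx* encodes the dehydrogenase that produces NADPH first and is rate limiting. It averaged 420 ± 41.8 across AIWG-P against 359 ± 31.8 across AIWG-R, a fold change of 1.17 (log2 0.23, SE 0.09, unadjusted p = 0.0297). The lactonase gene *Pgls* had a log2 fold change of 0.07 (adjusted p = 0.792). *Pgd*, which encodes the second NADPH-producing dehydrogenase, averaged 691 ± 40.1 across AIWG-P against 699 ± 108 across AIWG-R (adjusted p = 0.988), with R1 at 889. In the non-oxidative branch, which interconverts sugars, the transketolase gene *Tkt* averaged 1040 ± 75.3 across AIWG-P against 928 ± 39.7 across AIWG-R (fold 1.12, unadjusted p = 0.0497). *Taldo1* averaged 4190 ± 1159 across AIWG-P against 3275 ± 609 across AIWG-R (fold 1.26, unadjusted p = 0.0759 and adjusted p = 0.431) and P8 held its highest value, 6068. It passed both thresholds without P3, P5 or R8 and was at log2 0.19 without P8. The epimerase gene *Rpe* had 0.21 (adjusted p = 0.398) and the isomerase gene *Rpia* 0.00 (adjusted p = 0.988).

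The members were then set against the red cell markers, since these differed between the cohorts. In a limma fit with the mean of the 18 markers as a covariate, the log2 difference of *Bpgm* between the cohorts was 0.04 (SE 0.15, unadjusted p = 0.805), while those of *Ldhb* and *Prps1* were 0.70 (SE 0.28, unadjusted p = 0.0299) and 0.40 (SE 0.13, unadjusted p = 0.00897). By the same thresholds 2 members were higher in AIWG-P at equal red cell markers and none was lower, against 1.28% of all genes higher and 2.40% lower. Across mice within cohorts *Bpgm* had a slope of 0.75 (SE 0.16) on the red cell markers, with an adjusted p of 0.0359, and was the member among the 1.85% of all genes with a positive slope at an adjusted p under 0.05. That test rested on single mice. The adjusted p of *Bpgm* was above 0.05 in 8 of 10 fits without 1 mouse, reaching 0.389 without R9 at a slope of 0.95, and the count over all genes was 1 without R9, 126 without P7 and 120 without R8, against 193 with every mouse. *Taldo1* had the next highest slope, 0.48 (SE 0.20, adjusted p = 0.739), and *Pgam1* had 0.11 (SE 0.13). The part of red cells in the difference of *Bpgm* cannot be told apart from a difference per cell.

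**Figure D4:**
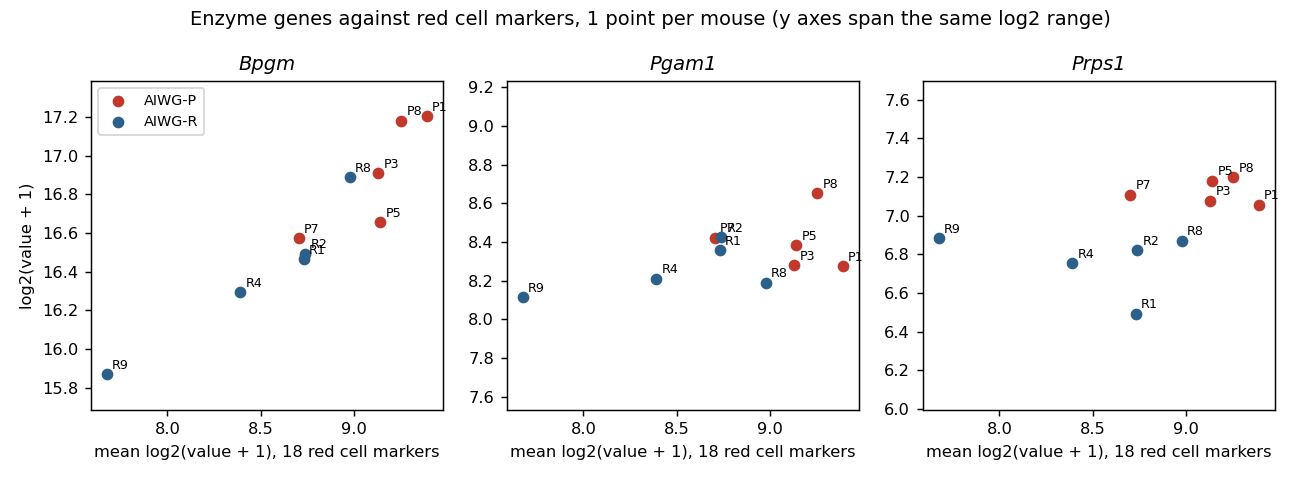
Log2 of the value plus 1 (y, same span in each panel) of *Bpgm*, *Pgam1* and *Prps1* against the mean log2 value of 18 red cell markers (x), with 1 point per mouse. *Bpgm* is low in R9 and high in P1 and P8, the ends of the marker range, while for *Prps1* the AIWG-P mice lie above the AIWG-R mice; both cohorts have mice only where the marker mean lies between 8.70 and 8.98.

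Markers of other blood cells were read in the same way. Neutrophil markers passed both thresholds upward in 2 of 11 (18.2%, against 4.06% of all genes). Their mean log2 level was 8.56 to 9.02 in AIWG-P and 8.16 to 9.24 in AIWG-R. None of the monocyte, platelet, B cell and T cell markers passed. The platelet marker mean still spread widely in AIWG-P, from 8.2 in P3 to 10.1 in P8, against 9.2 to 9.6 in AIWG-R. The relation of the members to the platelet markers was not tested. Of 9 NK cell markers 1 was lower. On the mean of the neutrophil markers no member had a positive slope at an adjusted p under 0.05, as 0.0575% of all genes did. The member nearest was *Hk3*, with a slope of 0.93 (SE 0.17, adjusted p = 0.122), and R1 held its highest value. Without R1, 0 genes of the table had such a positive slope. Slopes were below 0 for *Prps1*, at -0.31 (SE 0.14, unadjusted p = 0.0418 and adjusted p = 1 in limma), and for *Ldhb*, at -0.44 (SE 0.34, unadjusted p = 0.223). R1, the AIWG-R mouse with the lowest *Prps1* and *Ldhb*, had the highest neutrophil marker mean of all mice, 9.24. The difference of these genes between the cohorts at equal neutrophil markers was not tested.

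Mouse P8 held the extreme value of many members. It had the highest value of 17 of the 33 (51.5%), against 27.1% of all genes, including 6 of the 7 genes of lower glycolysis and both lactate dehydrogenase genes, and the lowest value of 5, *Hk2*, *Pfkfb2*, *Pfkfb3*, *Tigar* and *Prps2* (15.2%, against 28.5% of all genes). Without P8 the members higher in AIWG-P numbered 1, *Prps1* (3.03%, against 2.71% of all genes in the same fit), and the median log2 fold change of the members was 0.07. P8 also had the largest unit step, 1.57 against 0.63 to 1.21 in the other mice. Its globin share (87.5%) and its platelet marker mean (10.1) were the highest of all mice. The part of the scaling or of the cell mixture in its values was not tested. R9, with the smallest step (0.63), held the lowest value of 8 members (24.2%, against 12.3% of all genes). P7, P8 and R1 carry the number 3 in their labels and the other mice the number 4, a number that no source used here explains. Among the mice with the number 4 the log2 difference was 0.54 for *Bpgm*, 0.27 for *Prps1* and 0.46 for the ratio of *Bpgm* to *Pgam1*, and the mice with the number 3 include a single AIWG-R mouse.

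**Figure D5:**
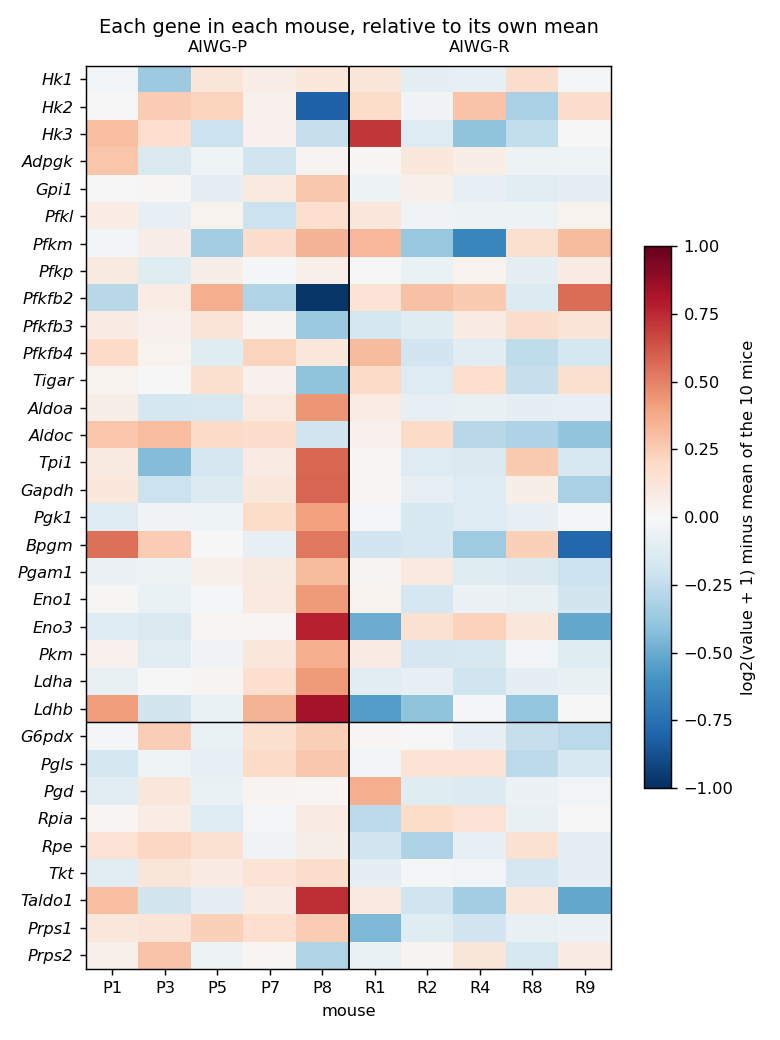
Log2 of the value plus 1 of each gene (rows, pathway order) in each mouse (columns, AIWG-P left of AIWG-R), minus the mean of the 10 mice; red is above and blue below the mean, and the line across separates glycolysis from the pentose phosphate genes. P8 is the highest mouse in 17 of the 33 rows, and R9 is low in *Bpgm* and *Taldo1*.

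Genes around the pathway were counted by the same thresholds, against 4.06% of all genes higher and 3.23% lower. Of 11 glucose and lactate transport genes 2 (18.2%) were higher in AIWG-P. *Bsg*, the partner protein of lactate transporters and also a blood group protein, averaged 1473 ± 271 across AIWG-P against 1063 ± 258 across AIWG-R (fold 1.40, unadjusted p = 0.0152, adjusted p = 0.343), and *Slc16a10*, which carries aromatic amino acids and not lactate, had a fold change of 1.44 (unadjusted p = 0.0134). At equal red cell markers their log2 differences were 0.01 and 0.04. Of 14 genes around the entry of pyruvate into mitochondria 2 (14.3%) were higher. The pyruvate carrier subunit gene *Mpc2* averaged 340 ± 69.3 across AIWG-P against 223 ± 49.8 across AIWG-R (fold 1.53, unadjusted p = 0.00333, adjusted p = 0.325), and *Pdk3*, a kinase that restrains pyruvate dehydrogenase, had a fold change of 1.27 (unadjusted p = 0.00962). At equal red cell markers *Mpc2* was at 0.21 and *Pdk3* at 0.45, and *Pdk3* kept its call.

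Of 22 genes on side branches of glycolysis 1 (4.55%) was higher, the fructokinase gene *Khk* (log2 0.40, unadjusted p = 0.0396), and of 14 regulators of glycolytic genes 1 (7.14%) was lower, *Mlxip*, a glucose-sensing transcription factor (log2 -0.36, unadjusted p = 0.00791). Without P8 these were at 0.32 and -0.26 and passed no longer. At equal red cell markers *Khk* was at 0.54 and *Mlxip* at -0.35, and both kept their call.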

How the data were processed

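Whole-blood RNA of 5 AIWG-P and 5 AIWG-R mice was sequenced from TruSeq libraries. The authors mapped reads with Bowtie2, counted them with RSEM and used limma; the submitters' processing notes name mm9, without versions. The deposited values are a signal per gene and mouse whose normalization no source used here states. The lower values of each mouse, the ones checked, lie within 0.02 of whole multiples of 1 step. The authors' fold changes, p-values and q-values were not used. Depth limits the low genes, and p-values cover the spread between these mice.

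Values were tested as log2(value + 1), so that fold changes of low genes are understated, with limma 3.58.1 (R 4.3.3, mean-variance trend) on 10429 genes above 1 in at least 5 mice, and called where the unadjusted p was under 0.05 and log2 fold change beyond 0.32 either way, with Benjamini-Hochberg adjustment beside it. Further fits added the mean of red cell or neutrophil markers. Levels per kb used the median GENCODE M21 transcript length. The method was tested on simulated data. Members and lists were chosen with earlier results of these data known. Every member is named; values per mouse are given for called members, *Pkm*, *Bpgm* and *Pgam1*, and for *Ldha*, which was added after its values were seen. The 250-base promoter window was set after matches in a longer one had been seen. Of each list, at most 3 called genes are named. The result of 1 further list is not reported here. Alternatives were other scalings, filters, pseudocounts, covariates and fold thresholds, and fewer mice.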

Additional observations from a re-analysis of the deposited data

Results flagged for a closer look

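Among 66 groups (33 genes in 2 cohorts), 6 had 1 mouse far from the other 4, where chance flags about 1 in 20. R1 was apart from the other AIWG-R mice in *Hk3* (264, the next at 161), *Pfkfb4* (400, the next at 297), *Aldoa* (1587, the next at 1433) and *Pgd* (889, the next at 677). P8 was apart from the other AIWG-P mice in *Pfkfb3*, where it was low (170, the next at 224), and in *Eno3*, where it was high (244, the next at 144). None of these genes passed both thresholds between the cohorts. R1 also had a mean log2 level of the neutrophil markers of 9.24, against 8.16 to 8.42 in the other AIWG-R mice. On these markers *Hk3* had a slope of 0.93, *Pfkfb4* of 0.47 and *Pgd* of 0.42 (unadjusted p = 0.000175, 0.00683 and 0.00458, adjusted p = 0.122, 0.819 and 0.663 in limma). *Aldoa* had a slope of 0.08 (unadjusted p = 0.675 in limma). The same mouse sets both the gaps and the ends of these slopes, so that the slopes are no separate support. Without R1, 0 genes of the table had a positive slope at an adjusted p under 0.05. The part of neutrophils in these values was not tested.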

How the results depend on the processing

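Scaling without the globins gave 162 higher and 1212 lower genes and 1 member in each direction, with *Ldhb* at 0.40 and *Prps1* at 0.22; with red cell markers as a covariate there were 134 higher genes. With the replicate block there were 770 higher and 1006 lower genes and 5 and 1 members, with 1 residual degree of freedom and 422 genes at an adjusted p under 0.05 in limma. The numbers 1 and 8 recur in both cohorts but name different mice, and the deviations of same-numbered mice correlated at 0.12 and 0.33. Without P8 and R9 there were 178 higher and 188 lower genes and 1 higher member. With no fold threshold there were 702 higher and 638 lower genes and 6 higher members, and with a threshold of 0.75 there were 196 lower genes.

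Leaving out 1 mouse gave 265 to 563 higher and 228 to 637 lower genes (265 without R9, 637 without P3, 602 without P5), 0 to 4 higher members (0 without R1, 1 without P1, P8 or R2) and 0 to 1 lower members. At equal red cell markers the range was 85 to 185 higher and 145 to 315 lower genes (85 and 145 without P7). For the slope on red cell markers it was 1 to 246 genes, and on neutrophil markers 0 to 17 (17 without P8, 0 without R1). The log2 ratio of *Bpgm* to *Pgam1* differed by 0.25 to 0.50. Under quantile normalization that difference was -0.17 (exact permutation p = 0.135) and that of *Bpgm* 0.00. *Bpgm* ranked 6 of all genes in every mouse, so that this scaling gives it the same value in each. The ratio then varies with *Pgam1* alone. With the label number as a covariate *Bpgm* was at 0.50 (unadjusted p = 0.0546 in limma).

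Over 689 pairs of a member and an alternative, 660 kept their direction and side of the thresholds or had no call, and in 55 of these the sign changed with no call in either fit; a value that rounded to 0.00 was not read as a change of sign, a choice made after the values were seen. Count-based tests planned as alternatives were not run, since the steps in the values could not be tied to whole reads by the check available. *Ldhb*, *Aldoc* and *Pfkm* rest on few unit steps per mouse.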
